A study of Equus caballus with 4 samples.

Results

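In the equine sarcoid, a skin tumour of fibroblasts that grows into its surroundings, and in distant skin of the same animals, 6 genes of matrix breakdown could be read: the metalloproteinases MMP1, MMP3, MMP9 and MMP13 and the inhibitors TIMP1 and TIMP3. They were chosen by name, with earlier results of these data known. The rule took all non-control probes whose RefSeq accession belongs to 1 of 7 horse genes and used no values. The 6 genes read are among the 1031 with a symbol on the array. They have 21 of its 43603 probes: 8 for MMP1, 5 each for TIMP1 and TIMP3 and 1 each for MMP3, MMP9 and MMP13. For cathepsin K (CTSK), the collagen-cleaving cysteine protease of osteoclasts and activated fibroblasts, 0 probes matched an accession, so it was not analysed here.

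Each of 4 horses gave a sarcoid, labelled with Cy3, and skin taken away from the tumour, labelled with Cy5, and both were hybridised to 1 two-colour Agilent horse array. The labels name no treatment of the animals beyond storage of the tissue in RNAlater, and ages are not given in the sources used here. For 3 samples the free-text description speaks of embryonic stem cells while the source and tissue labels give sarcoid and skin; the latter were followed. Every log2 ratio below is sarcoid over skin of the same horse, and with 0 dye-swapped arrays a dye effect of a gene is part of each ratio.

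Matrix metalloproteinases are zinc enzymes that are made as inactive proenzymes and cut the proteins between cells. MMP1 and MMP13 are collagenases, which open the triple helix of fibrillar collagen; MMP3 is a stromelysin with many matrix substrates that also activates other proenzymes; MMP9 is a gelatinase, which digests denatured collagen and is stored in neutrophil granules. The tissue inhibitors of metalloproteinases bind the active enzymes: TIMP1 is a soluble inhibitor made by fibroblasts and many other cells, and TIMP3 stays bound to the matrix and also blocks adamalysins. In skin, fibroblasts, wound-edge keratinocytes and leukocytes are known sources of the collagenases and stromelysins. A transcript level does not give the activity of these enzymes, which is also set by activation and inhibition of the protein.

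TIMP1 was the member that rose, about 4.41-fold (95% interval 2.55 to 7.63, limma, 4 horses), and it was higher in the sarcoid of every horse on each of its 5 probes. The collagenase MMP1 had a mean ratio of 2.58-fold (95% interval 1.23 to 5.42) that did not pass the test and ranged on the log2 scale from 0.18 in horse 1 to 2.84 in horse 3. MMP3 took opposite directions in different horses, and MMP9 and TIMP3 had mean ratios near or slightly below 0. MMP13 was too dim to be tested. Of the 5 members tested, 1 was higher and 0 were lower at a Benjamini-Hochberg adjusted p under 0.05, where 5.84% of all 19607 targets tested were higher and 9.9% lower; a target is a gene, or an unnamed transcript, read on its brightest probe. Among the 845 tested targets with a symbol the shares were 7.69% and 12.7%.

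Per channel, 67.2% to 80.7% of probes exceeded background clearly by the scanner's flag, no spot was saturated, and all 4 arrays lay on 1 slide scanned on 1 day. Markers of other tissue parts differed between the groups. All 5 tested fibroblast markers were higher in the sarcoids (list median 1.84; summed normalized signal 473970 to 673670 in the sarcoids and 105640 to 183070 in the skin). Both tested keratinocyte markers, KRT15 and S100A7, were lower (summed signal 1238 to 2746 against 37089 to 121500), as were the 3 tested gland and hair markers. Of the other lists, 1 of 5 endothelial, 1 of 5 macrophage and 0 of 4 T and NK cell markers were higher, and 2 of 6 melanocyte, 1 of 5 muscle and 2 of 2 erythrocyte markers were lower. Their part in the results below was not tested. In bulk tissue, fewer cells of a type and less RNA per cell cannot be told apart.

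The TIMP1 probe of highest signal, A_69_P001002, had normalized log2 signals of 16.57, 13.42, 14.93 and 15.34 in the sarcoids of horses 1 to 4, and of 13.47, 12.21, 12.57 and 13.47 in their skin. The sarcoid was the higher of the pair in every horse, but the groups overlapped slightly, since the sarcoid of horse 2 lay just below the skin of horses 1 and 4. The order of the horses was alike in both tissues, with horse 2 lowest and horse 3 next. The log2 ratios were 3.11 in horse 1, 1.22 in horse 2, 2.36 in horse 3 and 1.88 in horse 4, with a mean of 2.14 ± 0.80 (SD, n = 4; limma adjusted p = 0.012). A target had the same positive sign in all 4 horses in 17.8% of cases. The median log2 ratio of the 5 fibroblast markers was 2.29, 1.39, 1.80 and 1.77 in horses 1 to 4. It was nearly level in horses 3 and 4. The order of horses was that of TIMP1 for this median and for LUM and DCN singly, but not for TBX15, VIM or FGF7. The part of fibroblast number in the TIMP1 values was not tested. Flipping the signs of the 4 ratios in all ways gave an exact two-sided p of 0.125, which is the smallest that 4 horses allow.

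**Figure D1:**
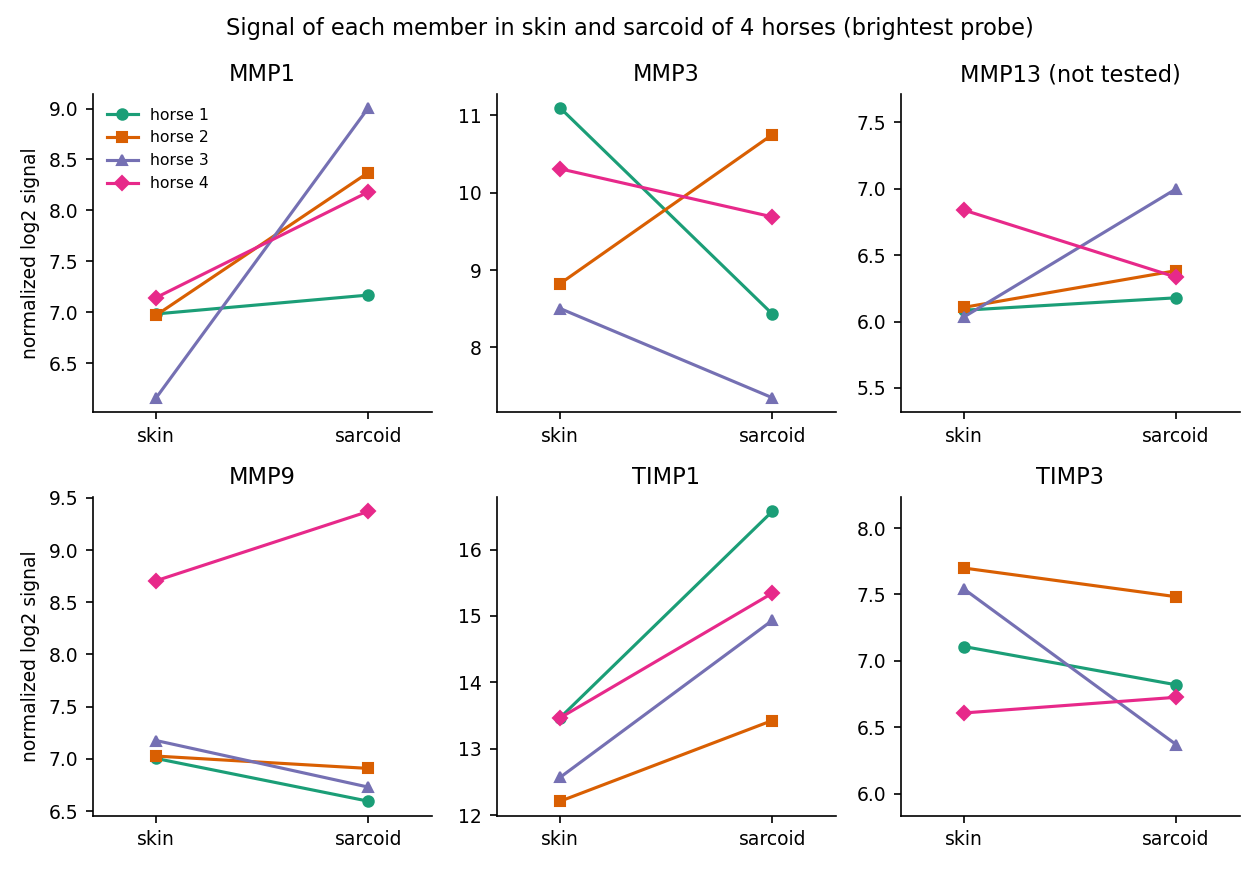
Normalized log2 signal (y axis, scaled separately in each panel) of the brightest probe of each member in skin and sarcoid (x axis), with 1 line for each of 4 horses. All 4 lines rise for TIMP1, by 1.22 to 3.11, and for MMP1, by 0.18 to 2.84, while those of MMP3 cross and the line of horse 4 lies apart for MMP9.

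The other 4 TIMP1 probes gave mean log2 ratios between 2.09 and 2.17. On A_69_P001002 the horses differed by an SD of 0.80, which exceeded that of 90.1% of the targets tested. Within a horse the 5 probes differed by at most 0.14, so the spread of TIMP1 lay between horses and not between probes. All 5 were called higher when p-values were adjusted over all 33864 probes (limma adjusted p from 0.00868 to 0.0101), where 6.97% of probes were higher and 11.2% lower, and no other member probe was called in either direction. The 5 probes share 1 transcript and are not replicates. The TIMP1 call over targets was lost without horse 3 (limma adjusted p = 0.051), and with the background model fitted to all spots (0.0722), although the log2 ratio was 2.07 and 2.12 there. Over probes, all 5 still passed whichever horse was left out.

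**Figure D2:**
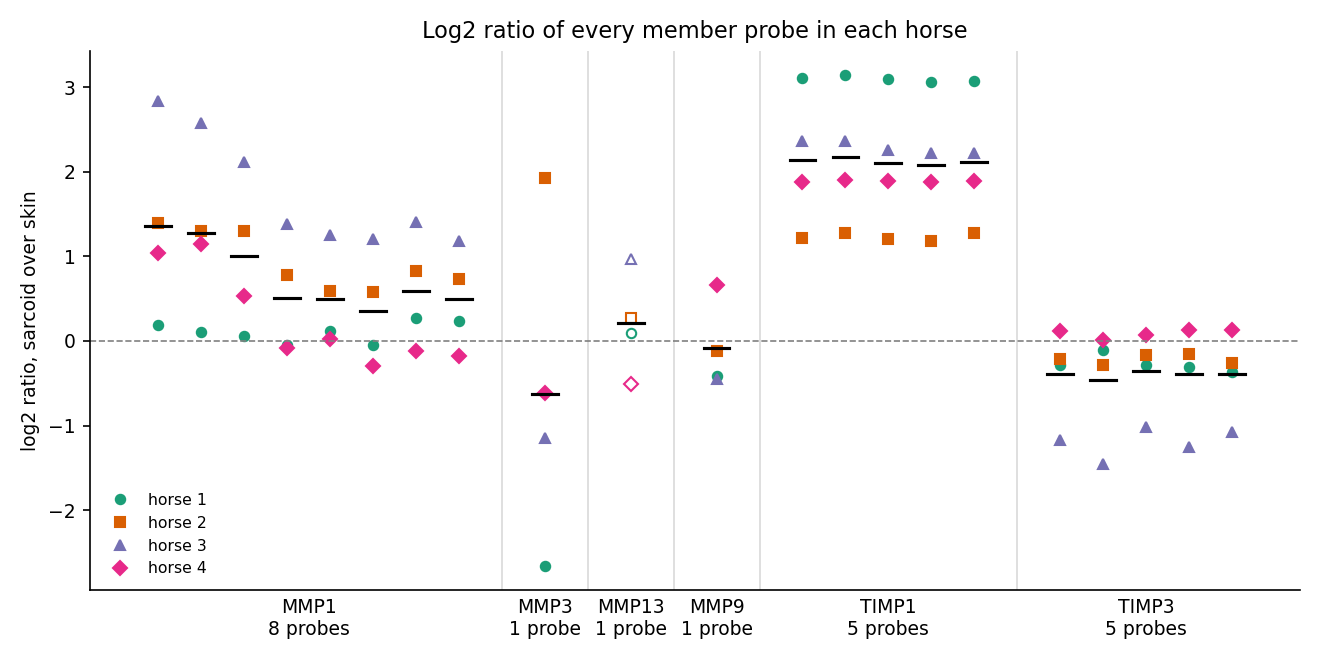
Log2 ratio of sarcoid over skin (y axis) for all 21 probes, grouped by gene on the x axis and ordered by signal within a gene; symbols are horses, bars are means, and open symbols mark the untested MMP13 probe. The 5 TIMP1 probes repeat the same 4 values within 0.14, whereas the MMP1 probes spread by up to 1.66 within horse 3.

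The second inhibitor measured, TIMP3, did not share the rise. Its brightest probe, A_69_P000071, had log2 signals of 6.82, 7.48, 6.37 and 6.73 in the sarcoids of horses 1 to 4 and of 7.11, 7.70, 7.54 and 6.61 in the skin, so the groups overlapped over most of their range. The log2 ratio was -0.29, -0.22, -1.17 and 0.12, with a mean of -0.39 ± 0.55 (SD, n = 4; limma adjusted p = 0.317; 95% interval -0.97 to 0.19). Horse 3 held the lowest ratio on each of the 5 probes, between -1.46 and -1.02, and horse 4 stood between 0.02 and 0.14. Without horse 3 the mean was -0.13. The 5 probes had means between -0.46 and -0.35. Only A_69_P000071 was well above background in all 4 sarcoids, and 2 of the others were so in only 2.

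TIMP1 exceeded TIMP3 in its log2 ratio in every horse, by 3.39, 1.43, 3.53 and 1.76, a mean difference of 2.53 ± 1.09 (SD, n = 4; exact sign-flip p = 0.125, the smallest possible). Comparisons between members were chosen after their values were seen.

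MMP1 was read by 8 probes. On the brightest, A_69_P000782, the log2 signals were 7.17, 8.37, 9.01 and 8.18 in the sarcoids of horses 1 to 4 and 6.98, 6.97, 6.16 and 7.15 in the skin. On this probe the 4 sarcoids lay above the 4 skin samples with no overlap. The margin, between the sarcoid of horse 1 and the skin of horse 4, was a few hundredths. Among targets with values on all arrays, 8.07% showed such a separation with the sarcoids higher. A_69_P004156 was also separate (lowest sarcoid 6.66, highest skin 6.59), but A_69_P000781 (7.05 and 7.08) and the remaining MMP1 probes overlapped. On A_69_P000782 horse 3 had both the highest sarcoid and the lowest skin signal. The log2 ratios were 0.18, 1.40, 2.84 and 1.04, with a mean of 1.37 ± 1.11 (SD, n = 4; limma adjusted p = 0.0938; 95% interval 0.29 to 2.44). The spread of these ratios between horses exceeded that of 95.6% of the targets tested.

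The size of the MMP1 ratio depended on the probe. The 3 probes that were well above background in every sarcoid (A_69_P000782, A_69_P000781 and A_69_P004156) had mean log2 ratios of 1.37, 1.28 and 1.00. The other 5, which were not well above background in the sarcoid of horse 4, had means between 0.36 and 0.60. The order of the horses stayed similar: horse 3 held the highest ratio on each of the 8 probes, between 1.19 and 2.84, and horse 2 the next, between 0.58 and 1.40. In horse 1 the probes ranged from -0.05 to 0.27 and in horse 4 from -0.30 to 1.14. The 8 probes share 1 transcript and are not replicates. On A_69_P004165 and A_69_P004161 no skin sample was well above background, and neither passed the test (limma adjusted p over probes = 0.192 and 0.227).

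Whether MMP1 passed turned on the processing. With the channels fitted separately and the spot correlation as the replicate block the limma adjusted p was 0.0307, with a log2 ratio of 1.37. With Agilent's processed signals the log2 ratio was 2.39 and the limma adjusted p lay at the threshold (0.04999). The log2 ratio was 0.45 with the background model fitted to all spots and 0.57 as the median of the 8 probes (limma adjusted p = 0.292 and 0.215). Without horse 3 the mean was 0.87. The size and order of the probes turned on the processing too. With Agilent's processed signals A_69_P004156 was at 3.03, above A_69_P000782. The 5 probes not well above background in every sarcoid lay between 0.72 and 2.11 there.

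MMP13, the other collagenase, had a single probe, which was well above background in the sarcoids of horses 2 and 3 and in the skin of horse 4 and so did not reach the 3 arrays of 1 channel needed for a test. Its log2 signals were 6.18, 6.38, 6.9995 and 6.33 in the sarcoids of horses 1 to 4 and 6.09, 6.11, 6.04 and 6.84 in the skin. The highest sarcoid signal was that of horse 3 and the highest skin signal that of horse 4. The log2 ratios of 0.09, 0.28, 0.96 and -0.50 have a mean of 0.21 ± 0.60 (SD, n = 4). A difference in MMP13 was not detectable at this signal, and without the filter on dim probes its limma adjusted p was 0.643.

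MMP3 varied most between horses. Its single probe was well above background in both tissues of all horses, with log2 signals of 8.43, 10.75, 7.35 and 9.69 in the sarcoids of horses 1 to 4 and 11.09, 8.83, 8.50 and 10.31 in the skin. Horse 2 was the only horse with more signal in the sarcoid, and the skin of horse 1 held the highest value of all. The log2 ratios were -2.66, 1.92, -1.15 and -0.62, with a mean of -0.63 ± 1.91 (SD, n = 4; limma adjusted p = 0.608; 95% interval -2.43 to 1.18). The SD exceeded that of 99.2% of the targets tested. The mean was -1.48 without horse 2 and 0.051 without horse 1, so its direction rested on single animals.

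In horse 2, where MMP3 was higher in the sarcoid, the summed signal of the 4 tested T and NK cell markers in the sarcoid was 9296, against 754 to 2164 in the other 3 sarcoids and 1576 to 2623 in the skin. That sum rested on GZMB (granzyme B, of cytotoxic cells), whose log2 signal was 13.10 there. By level, CD2, KLRD1 and FOXP3 were each highest in the sarcoid of another horse. By log2 ratio, GZMB (2.78), CD2 (1.19) and KLRD1 (1.03) were highest in horse 2, and FOXP3 in horse 1. In the sarcoid of horse 2 the summed signal of the 5 tested endothelial markers was 31422, against 5958 to 11723 in the others. That of the 5 tested macrophage markers was 22723, against 7941 to 17120. The macrophage sum rested on CD14, whose log2 signal was 14.35 in that sarcoid. By level, CSF1R, CD68, ITGAX and ACP5 were each highest in the sarcoid of another horse. The median log2 ratio of the macrophage markers was 0.67, 0.40, -0.40 and 0.54 in horses 1 to 4. None of the T and NK cell markers passed the test between the tissues. Of the endothelial markers 1, VCAM1, was higher, and of the macrophage markers 1, CSF1R. The part of these cells in the MMP3 values was not tested.

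MMP1 and MMP3 are neighbouring genes in the RefSeq gene table of the horse (assembly TB-T2T), with MMP13 nearby on the same chromosome, but their ratios were not alike. The MMP1 log2 ratio was above that of MMP3 in horses 1, 3 and 4, by 2.84, 3.99 and 1.66, and below it in horse 2, by -0.52 (exact sign-flip p = 0.25, smallest possible 0.125).

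The gelatinase MMP9 did not pass, and its values were set apart by 1 horse. The log2 signals of its single probe were 6.60, 6.91, 6.73 and 9.37 in the sarcoids of horses 1 to 4 and 7.004, 7.03, 7.18 and 8.71 in the skin. Horse 4 was far above the other horses in both tissues, and the groups overlapped. The log2 ratios were -0.41, -0.12, -0.45 and 0.66, with a mean of -0.08 ± 0.51 (SD, n = 4; limma adjusted p = 0.848; 95% interval -0.63 to 0.47), and the sign of the mean turned in 4 of 18 alternatives, with values up to 0.055. LTF (lactoferrin, a protein of neutrophil granules and of skin glands), the only one of 12 listed neutrophil markers with a probe that could be named, was also highest in horse 4: its normalized signal was 2221 in that sarcoid against 93 to 187 in the others, and 22742 in that skin against 314 to 1160. The part of neutrophils in the MMP9 values was not tested. LTF is also counted among the gland and hair markers above, and it was lower in the sarcoid than in the skin of every horse.

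**Figure D3:**
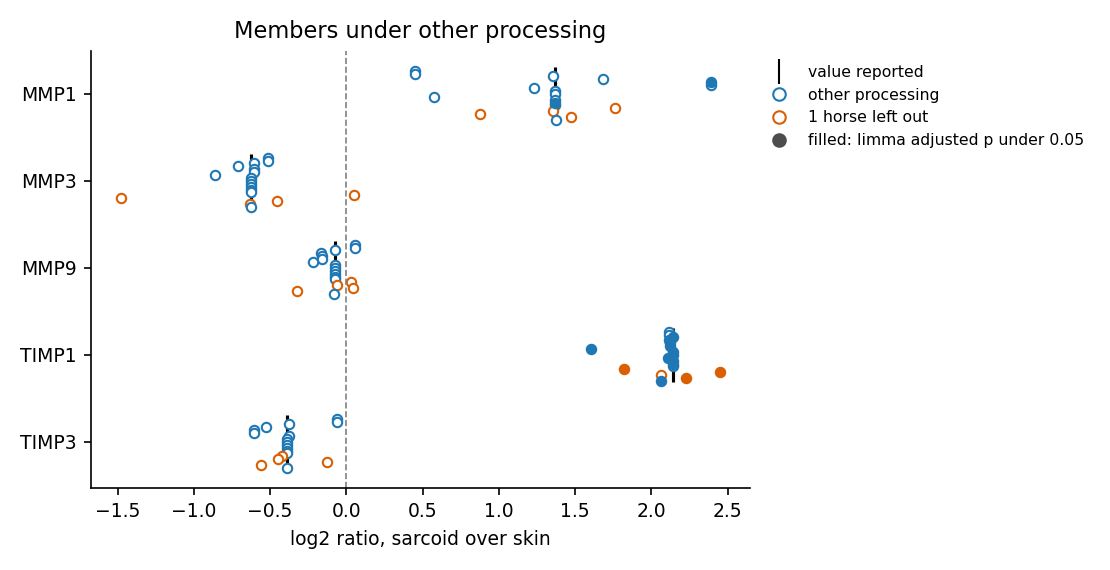
Log2 ratio of sarcoid over skin (x axis) of the 5 tested members under each alternative (circles; orange where 1 horse was left out), with the value reported as a black line; filled circles have a limma adjusted p under 0.05. TIMP1 lies between 1.60 and 2.45 and MMP1 between 0.45 and 2.39, and MMP3 and MMP9 fall on both sides of 0.

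The proteases and inhibitors around these genes were thinly covered, because few probes carry an accession that a gene table names. Of 19 other matrix metalloproteinases 1 was on the array by name, MMP26, whose probes were never well above background. Of 31 adamalysins 1 could be tested, the aggrecan-cleaving ADAMTS4, which had a mean of 0.54 ± 0.53 on the log2 scale (SD, n = 4; limma adjusted p = 0.171). Of 9 genes of the plasminogen system, which activates several proenzymes, 1 could be tested, the urokinase receptor PLAUR. It ranged from -1.57 in horse 4 to 2.58 in horse 1 around a mean of 0.41 (limma adjusted p = 0.716), and the mean was -0.31 without horse 1. None of 17 other cathepsins and related proteases and none of 18 other inhibitors could be named.

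Of 31 genes that induce matrix metalloproteinases or carry the inducing signal, 11 were tested, with a list median of -0.30. The median was 0.0035 over all targets and -0.068 over those with a symbol. Of the 11 genes, 0 were higher, 4 were lower and 7 did not pass. The 4 were IL1R2, the decoy receptor of interleukin 1, at -5.39 ± 0.54, IL1RN, the interleukin 1 receptor antagonist, at -2.20 ± 0.44, and the AP-1 transcription factor subunits FOS at -3.10 ± 1.77 and FOSL2 at -1.30 ± 0.56 (SD, n = 4; limma adjusted p = 0.000278, 0.00243, 0.0357 and 0.0212). IL1R2 and IL1RN restrain interleukin 1, a known inducer of collagenase and stromelysin, while FOS and FOSL2 are parts of the factor that acts on their promoters, so the list mixes opposite roles. The IL1RN value is the furthest from 0 of its 8 probes, which ranged from -2.20 to -0.14, and as their median IL1RN was at -0.33 and not called (limma adjusted p = 0.0982). The call of FOS was lost in 7 of 18 alternatives, among them without horse 1 and without horse 2 (limma adjusted p = 0.0876 and 0.113), and that of FOSL2 in 5, among them without horse 1, 3 or 4 (0.0898, 0.0592 and 0.052). The interleukin 1 receptor IL1R1 was at 0.21 ± 0.40 and did not pass. IL1A, too dim for a size in all 4 sarcoids, did not pass but was called lower in 4 of 17 alternatives, with a limma adjusted p of 0.00601 with Agilent's processed signals. TGFB1 (0.54), IL6 (0.28), FGF2 (0.16), TNF (-0.28) and BSG, which encodes a metalloproteinase inducer of the cell surface (-0.30), did not pass either.

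Of 29 matrix proteins and other substrates 10 were tested: 7 were higher, 1 was lower and 2 did not pass, with a list median of 1.95. The list shares LUM and DCN with the fibroblast markers. The 7 were the proteoglycans LUM (4.24), BGN (3.06) and DCN (1.84), the collagens COL14A1 (3.04), COL5A2 (2.05) and COL15A1 (1.04) and the collagen-binding SPARC (2.99). COMP, an oligomeric protein of cartilage matrix, was lower, at -2.02 ± 0.88 (SD, n = 4; limma adjusted p = 0.0182). COL2A1 (0.91) and FMOD (0.84) did not pass, although COL2A1 was called higher in 6 of 18 alternatives. SPARC lost its call in 7 of 18 alternatives, among them without horse 1, 2 or 3 (limma adjusted p = 0.0652, 0.0507 and 0.0551). That of COL15A1 was lost in 5, among them without horse 1 or 2 (limma adjusted p = 0.0521 and 0.0565). COMP lost its call in 3, among them without horse 4 (limma adjusted p = 0.0696), and COL5A2, COL14A1 and DCN in 2 each. As the median of their probes COL14A1 was at 1.52 and LUM at 3.36, both still called. SPARC was at 2.60 on that reading and was not called (limma adjusted p = 0.0538). With the background model fitted to all spots, 3 of the genes in these lists were higher and 1 lower, in place of 7 and 5; without horse 1 or without horse 4, 3 were lower.

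**Figure D4:**
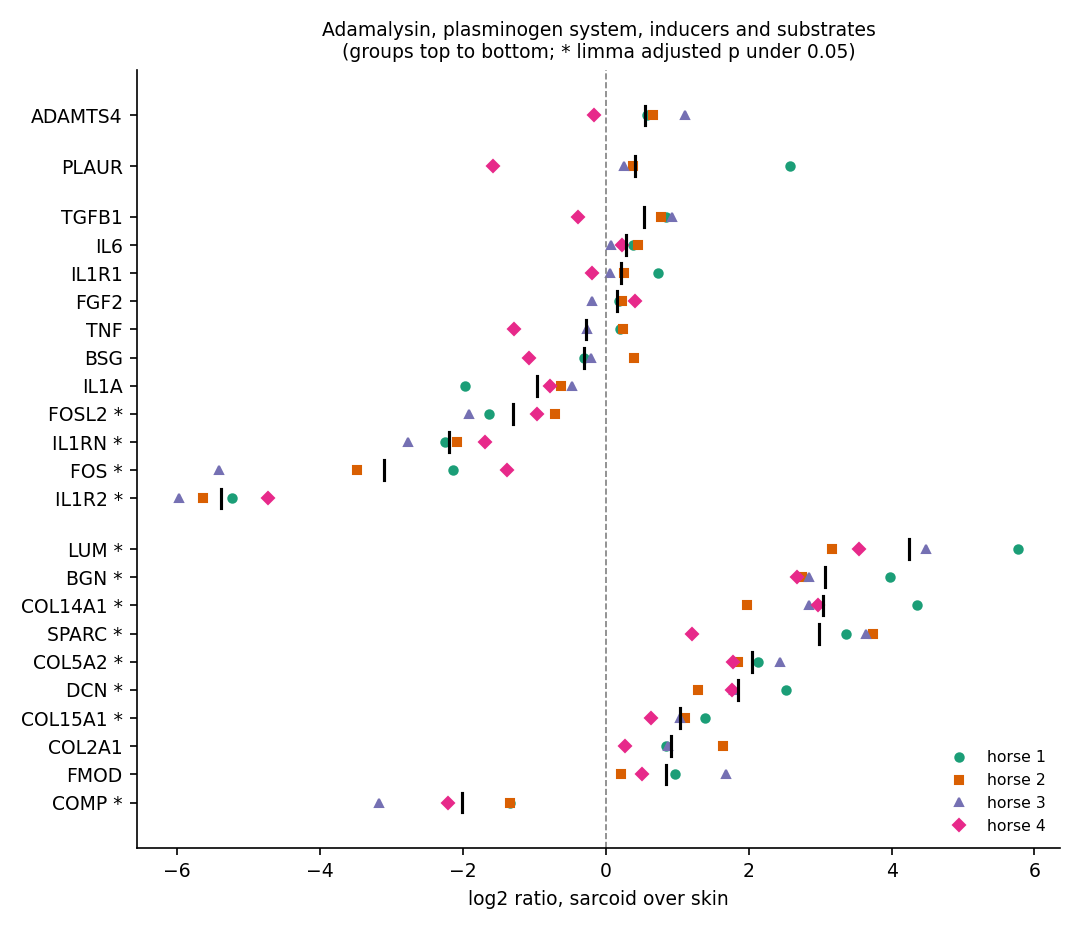
Log2 ratio of sarcoid over skin (x axis) in each horse (symbols) and on average (bars) for the tested genes around the members (y axis), in groups from top to bottom: ADAMTS4, PLAUR, inducers, and substrates. Stars mark a limma adjusted p under 0.05; the IL1A values rest on sarcoid signals not well above background. The 4 starred inducers lie below 0, and 7 of the 8 starred substrates above it.

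Of 840 other tested genes with a symbol, the 3 whose 4 log2 ratios lay nearest those of TIMP1 were HSP90B1, a chaperone of the endoplasmic reticulum, DSE, which epimerizes chondroitin to dermatan sulfate, and DCN. Their root mean square differences from TIMP1 over the 4 horses were 0.38, 0.39 and 0.41. HSP90B1 followed TIMP1 in having its highest ratio in horse 1, at 2.88, and its lowest in horse 2, at 0.96. The nearest to MMP1 were ABCA1, a cholesterol exporter, at 0.67, HMCN1, a matrix protein of the hemicentin family, at 0.79, and NME2, a nucleoside diphosphate kinase, at 0.81. These distances were larger than those around TIMP1, and ABCA1 was highest in horse 3, at 2.27, as MMP1 was.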

How the data were processed

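The members and gene lists were chosen with earlier results of these data known. Per the file headers, the authors' scanner files hold the median intensity of each spot and of its local background for both dyes, unlogged. The submitters' processing notes name Agilent Feature Extraction, version 11.5.1.1. Processed intensities are background-subtracted and dye-normalized by the scanner software. The deposited value table holds the log10 ratio of Cy5 over Cy3 (largest difference from the scanner files 0; medians 0, -0.0026, -0.0118 and 0 for horses 1 to 4). Other columns are flags of 0 or 1, per the file headers.

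Outlier spots (non-uniform feature, non-uniform background or population outlier of the feature) were left out, 6 to 47 an array and none of a member. Then came normexp background correction (offset 50) and loess within arrays, control spots having weight 0 (limma 3.58.1, R 4.3.3). This order, taken from an earlier analysis, gives many more calls than fitting all spots. Log2 signals per channel were then put on 1 scale between arrays by Aquantile, which leaves ratios as they are; they compare samples within a probe, not probes. A probe was kept if either channel was well above background on 3 or more arrays. The probe of highest mean signal stood for a gene. The 4 ratios were tested against 0 by limma's moderated test (lmFit, eBayes; two-sided), and p-values were adjusted by Benjamini-Hochberg over all targets or, for probes, over all probes; intervals are unadjusted. The pairing by horse, given by the labels, is inside the ratio, and the spot correlation between channels was 0.313. The labels call the arrays biological replicates. Named are all members and probes, tested genes of the pathway lists, markers only where called (otherwise as counts) and the 3 genes nearest TIMP1 and MMP1; 1 gene of the substrate list is not reported here and not counted. Of 3437 probes with a RefSeq accession 2332 matched the horse RefSeq table, by accession without version. Coordinates are left out because that table and the array design differ in build. The test was checked on simulated data. The number of arrays limits the precision. The alternatives number 19, of which 1 was added after seeing the data.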

Additional observations from a re-analysis of the deposited data

Results flagged for a closer look

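Among 63 sets of 4 values (the log2 ratio, sarcoid signal and skin signal of each of the 21 member probes), 3 had 1 horse far from the others by Dixon's test, and all 3 were horse 4. About 1 in 20 such sets stand out by chance, and probes of 1 gene are not independent. MMP9 stood at a log2 signal of 9.37 in the sarcoid of horse 4 against 6.60 to 6.91 in the other sarcoids. It stood at 8.71 in the skin of that horse against 7.004 to 7.18 in the other skin samples. MMP13 stood at 6.84 in the skin of horse 4 against 6.04 to 6.11, and that was the only skin sample in which its probe was well above background.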

How the results depend on the processing

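TIMP1 kept its direction in 18 of 18 alternatives, with log2 ratios from 1.60 to 2.45 and a limma adjusted p from 0.00676 to 0.0725; the call was lost in 4. MMP1 also kept its direction in 18 of 18 and was called in 2, with an adjusted p from 0.0307 to 0.292. TIMP3 kept its direction in 18 of 18, with log2 ratios from -0.60 to -0.065, and was never called. With the background model fitted to all spots, 93 targets were higher and 147 lower in place of 1146 and 1941, and 0 members and 0 member probes were called higher; with outlier spots kept the counts were 94 and 147, again with 0 and 0, and the log2 ratio of MMP9 turned to 0.055 in both. These 2 settings differ from the main one in the spots that enter the background fit; the cause was not tested further. With Agilent's processed signals 1887 targets and 2 members were higher (48.2% of the calls, against 37.1%), 1883 targets with the authors' value table, and on median centring 614 (18.7% of the calls), where FGF2 turned to -0.14; the cause was not tested. At a 2-fold minimum 713 were higher and 1287 lower. With separate channels and the spot correlation as the replicate block 2 members and 8 member probes were higher, and with no replicate block 0 members and 3 probes, where TIMP1 had a limma adjusted p of 0.0581. Leaving out 1 horse gave 389 to 820 targets higher, 1077 to 1415 lower, and 0 to 1 members higher. Over the 4 fits that left out a horse, the log2 ratio changed sign for MMP3 (-1.48 to 0.051, positive without horse 1), MMP9 (-0.32 to 0.045, positive without horse 1, at 0.033, and without horse 3), PLAUR (-0.31 without horse 1 to 1.08) and TNF (-0.45 to 0.055, positive without horse 4). Signal over background limits MMP13, the 5 MMP1 probes that were not well above background in every sarcoid, and the TIMP3 probes other than A_69_P000071.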

Other observations

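Other genes of proteolysis and hyaluronan synthesis, found by their symbols after the data were seen, added 2 called targets. SERPINB10, an intracellular serpin of the blood lineage also known as bomapin, was lower in the sarcoids, at -2.53 ± 0.55 on the log2 scale (SD, n = 4; limma adjusted p = 0.00261). SERPINF1, which encodes pigment epithelium-derived factor, was higher, at 2.62 ± 1.05 (limma adjusted p = 0.0141). SERPINB1, an inhibitor of neutrophil elastase, was at 0.49 ± 0.72, SERPINA14 at 1.28 ± 0.98, the kallikrein KLK1 at 0.11 ± 0.59 and the hyaluronan synthase HAS2 at 0.08 ± 0.48, and these did not pass (limma adjusted p = 0.315, 0.0844, 0.813 and 0.823).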
